A study of Macaca mulatta with 15 samples.

Results

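CD8 memory T cells were compared with CD8 naive T cells in 7 of the 15 RNA-seq libraries of a study of 2 healthy rhesus macaques (RhDBCb and RhM22), with peripheral blood as the source. The members were every library labelled CD8 memory (4 libraries) or CD8 naive (3 libraries), and both times of collection were used together. The study gave the animals 2-hydroxypropyl-beta-cyclodextrin, a cyclic sugar that takes up cholesterol, and its other 8 libraries hold CD4 naive and CD4 memory T cells. Libraries labelled "none" for treatment were drawn before it. The others were drawn after subcutaneous Kleptose HBP, a 15% (w/w) solution of the cyclodextrin, at 1 ml/kg/day over a period of at most 120 days. CD8 memory was represented by RhDBCb and RhM22 before and by both animals after treatment, and CD8 naive by RhDBCb and RhM22 before and by RhM22 alone after. The CD8 naive sample of RhDBCb after treatment was not analysed here. Its memory library therefore had no naive partner from the same draw, and 3 of the 4 draws held both subsets. How the subsets were separated is not given in the sources used here. With 2 animals, the p-values measure the spread between these 7 libraries, and in bulk RNA more cells expressing a gene and more RNA per cell cannot be told apart.

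A naive T cell is kept quiescent by factors such as LEF1, TCF7 and BACH2, and it circulates through lymph nodes with the help of the chemokine receptor CCR7. After contact with antigen it gives rise to memory cells, which hold ready transcripts for cytotoxic granules, cytokines and receptors for inflamed tissue, under factors such as T-bet (TBX21) and EOMES. Blood CD8 memory is a mixture of central memory, effector memory and innate-like cells, among them mucosal-associated invariant T cells.

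The 7 libraries held 55024208 to 71787193 counts over 12107 to 12577 genes with at least 10 counts, and the 10 most abundant genes took 8.2% to 13.3% of the counts. Levels are given as CPM (counts relative to library size, scaled by TMM), first for the naive libraries of RhDBCb before, RhM22 before and RhM22 after, then for the memory libraries of RhDBCb before, RhM22 before, RhDBCb after and RhM22 after. CD8A, a chain of the CD8 co-receptor, lay at 661, 836 and 797 CPM in naive and 737, 858, 781 and 673 CPM in memory libraries, with overlapping groups (edgeR adjusted p = 0.933). CD8B, the partner chain, lay at 434, 319 and 308 CPM against 202, 165, 165 and 225 CPM, and every memory library was below every naive one. It fell by 0.91 (log2, SE 0.22, edgeR adjusted p = 0.0466), a call that was lost without any 1 of 5 of the libraries. CD3D, a chain of the T cell receptor complex, lay at 215 to 336 CPM, and CD4, the helper co-receptor, at 1.71 CPM or less in all 7. Some defining markers of other cells were low: MS4A1 at most 1.73 CPM, CD14 5.7, NCAM1 1.81 and NCR1 2.05 CPM. The natural killer marker KLRF1 was higher, at 4.2 to 8.94 CPM in naive and 19.7 to 62.1 CPM in memory libraries. Summed over whole lists, B cell markers reached 115 CPM and platelet markers 72.2 CPM, both in the RhM22 after naive library. Monocyte and dendritic cell markers reached 62.9 CPM, in the RhM22 before memory library. In a principal component analysis of the 7 libraries the naive library of RhDBCb before stood apart on the second component (79, against -44.1 to 12.9 for the rest), and its memory library had the highest score on the first (73.7).

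Over both times, 1063 of the 12731 genes tested differed between CD8 memory and CD8 naive cells at an edgeR adjusted p under 0.05 (8.35%). In memory cells 688 genes rose (5.4% of the genes tested) and 375 fell (2.95%). The median size was a log2 fold change of 2.04 among the risers and -1.68 among the fallers, while the median over all genes tested was 0.03. More than 2-fold changes made up 639 of the rises and 327 of the falls, and more than 16-fold changes 74 and 31. All 1063 had the same direction in the 3 draws that held both subsets, and in 966 of them the memory and naive libraries did not overlap (23.1% of all genes tested did not). These are the libraries that gave the calls, so both counts describe the called genes and are no separate support. The count varied widely when 1 library was removed, in 6 cases to a lower value and in 1 to a higher one. Each such fit had fewer residual degrees of freedom than the 3 of the full fit. The part of this in the counts was not tested. All 97 called named genes kept their sign in these fits. Leaving out the RhM22 after naive library gave 226, the RhM22 before memory library 412 and the RhDBCb before naive library 529. For the RhM22 before naive library the count was 631, for the RhM22 after memory library 662 and for the RhDBCb before memory library 729. Removing the RhDBCb after memory library raised the count to 1432. It was 442 with time but no animal block, and 2983 when both libraries of RhDBCb before treatment were left out, which shared 1060 of the 1063 genes. In that last fit the RhDBCb after memory library had no naive partner and was taken up by the animal term. The fit therefore compared the subsets within RhM22 alone, here and for every list below, and its higher counts do not speak for both animals.

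**Figure D1:**
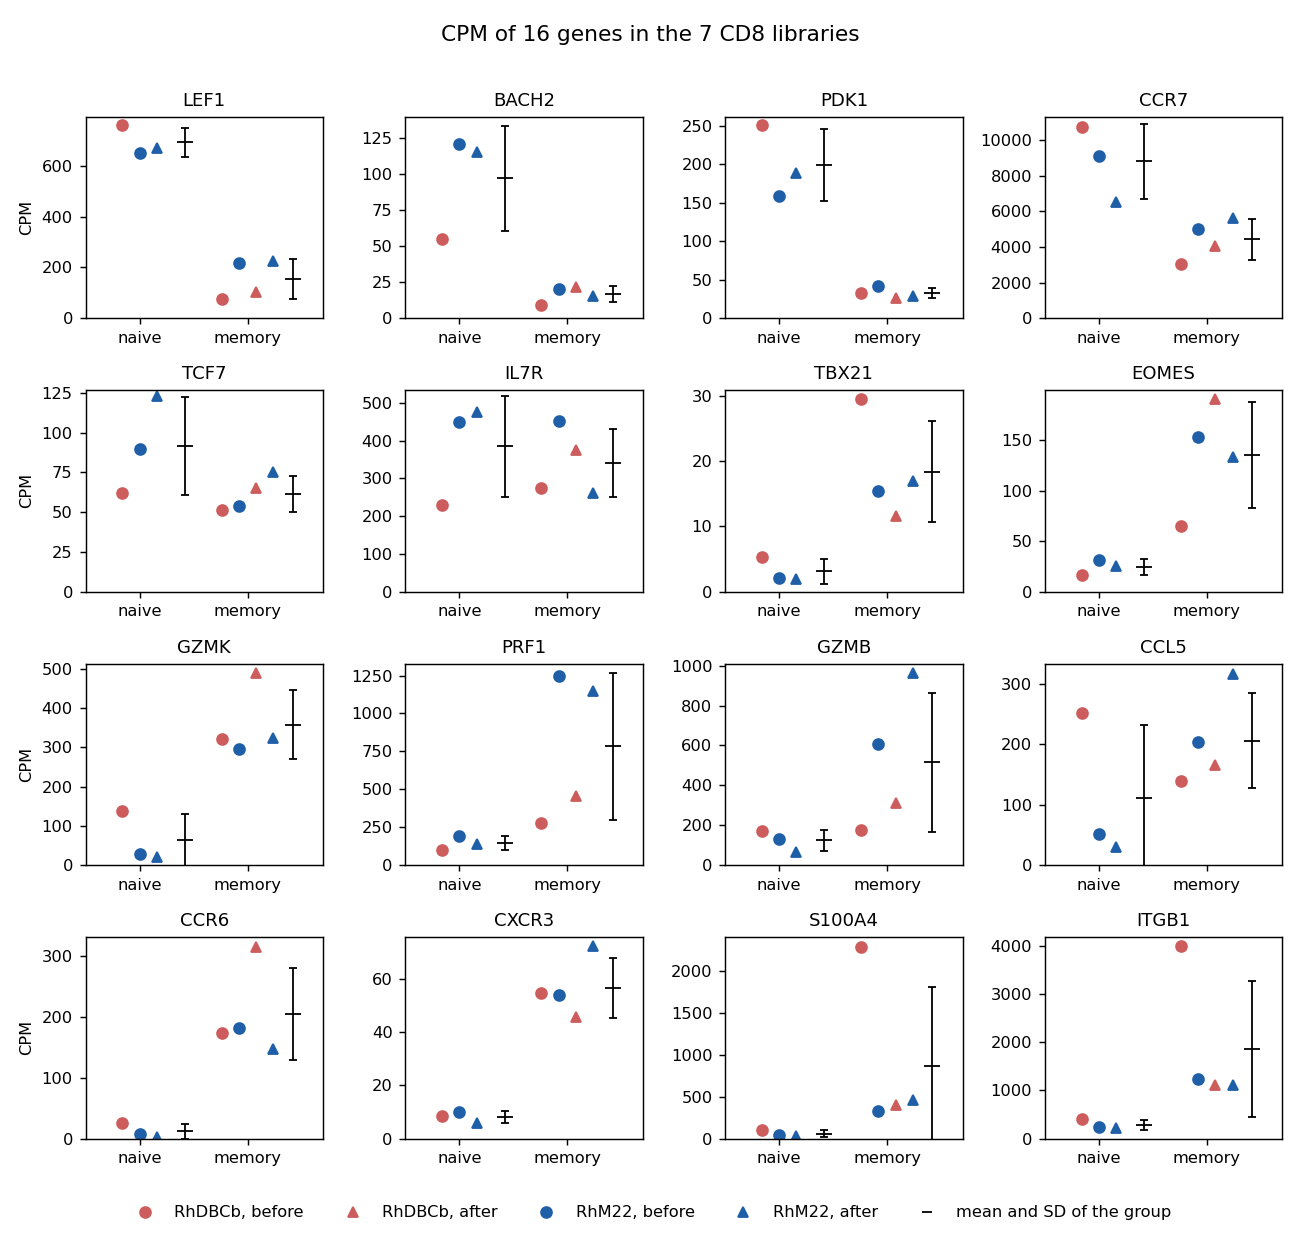
CPM of 16 genes (y axes, one per panel) in the 3 CD8 naive and 4 CD8 memory libraries (points), with the mean and SD of each group (bars, cut at 0). LEF1 lay at 651 CPM or more in every naive library and at 226 CPM or less in every memory library, while the S100A4 value of 2287 CPM in the RhDBCb before memory library stood far above the other 3.

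Genes of the naive and quiescent state fell. Of 24 tested members of that list 8 fell and none rose, with a median log2 fold change of -0.71, and 20 of the 24 were below 0. LEF1 (ENSMMUG00000023256), a transcription factor of the Wnt pathway that keeps T cells quiescent, lay at 759, 651 and 669 CPM in naive and 74.5, 217, 101 and 226 CPM in memory libraries. The groups did not overlap, and it fell by 2.21 (log2, SE 0.34, edgeR adjusted p = 0.00939). BACH2, a repressor that holds back effector genes, lay at 55.2, 121 and 115 CPM against 9, 20.5, 21.5 and 15.3 CPM. It fell by 2.47 (log2, SE 0.34, edgeR adjusted p = 0.0067), with every memory library far below the lowest naive one. PDK1, a kinase that limits pyruvate entry into mitochondria, lay at 250, 159 and 188 CPM against 32.9, 41.4, 26.1 and 29 CPM and fell by 2.59 (log2, SE 0.23, edgeR adjusted p = 0.0034). The chromatin organiser SATB1, the actin linker ACTN1, the G-protein regulator RGS10 and the Kruppel-like repressor KLF3 also fell, by 1.21, 1.65, 1.92 and 1.23 on the log2 scale. Each of these last 4 calls was lost without the RhM22 after naive library and without 1 or 2 others, with an adjusted p of at most 0.0905 for RGS10 to 0.155 for KLF3.

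The lymph node receptor of naive cells was lower in every memory library but not absent. CCR7 lay at 10750.4, 9135 and 6556 CPM against 3035, 4993, 4031 and 5630.5 CPM, without overlap, and missed the threshold (log2 fold change -0.97, SE 0.28, edgeR adjusted p = 0.0759). Per length its deposited FPKM averaged 784 in naive and 393 in memory libraries, so it remained among the abundant transcripts of memory cells, beside GPR183 at 478 and CXCR4 at 654 FPKM. TCF7, the partner factor of LEF1, had a log2 fold change of -0.57 (adjusted p = 0.111). IL7R, the interleukin-7 receptor that sustains both subsets, lay at 230 to 475 CPM in naive and 260 to 452 CPM in memory libraries (adjusted p = 0.94), and for CD28 and S1PR1 the log2 fold changes were 0.02 and -0.11. Without the RhM22 after naive library 3 members of the list were called, without the RhM22 before memory library 4 and without the RhDBCb before naive library 5. Without both libraries of RhDBCb before treatment 13 fell.

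The largest falls lay partly outside the lists. SMAD1 (ENSMMUG00000018384), a transducer of bone morphogenetic protein signals, lay at 34.8, 18.5 and 16.6 CPM in naive cells and at 0.0175, 0.426, 0.105 and 0.814 CPM in memory cells. It was close to 0 in all 4 memory libraries and fell by 6.31 (log2, SE 0.92, edgeR adjusted p = 0.00753). LRP5, a Wnt co-receptor, lay at 8.64, 19.1 and 27.4 CPM against 0, 1.05, 0.296 and 1.89 CPM, again without overlap, and fell by 4.89 (log2, SE 0.74, edgeR adjusted p = 0.00895). CA6, a secreted carbonic anhydrase, was abundant in naive cells, with 1081, 378 and 412 CPM against 40, 42.2, 54.7 and 54.6 CPM, and fell by 3.68 (log2, SE 0.36, edgeR adjusted p = 0.0034). Every memory library held under 55 CPM of it. The LIM-domain gene FHL1 fell by 4.88, the Ras exchange factor RASGRF2 by 4.22 and the ectodysplasin receptor EDAR by 3.45 on the log2 scale. For each of these 6 genes, and for LEF1, BACH2 and PDK1, the call held whichever 1 library was left out. The endosialin gene CD248 fell by 5.26 on the log2 scale but reached only an adjusted p of 0.05 without the RhDBCb before naive library.

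Transcription factors of effector and memory cells were higher. Of 24 tested, 13 rose and none fell, the median log2 fold change was 1.37, and all 24 were above 0. AHR, the receptor for aryl hydrocarbons that acts in barrier-tissue T cells, lay at 5.15, 7.36 and 6.74 CPM in naive and 108, 75.2, 60.5 and 37.9 CPM in memory libraries. It rose by 3.42 (log2, SE 0.37, edgeR adjusted p = 0.0036), and the groups were well apart. BHLHE40, a stress-responsive repressor that supports cytokine production, lay at 229, 304 and 215 CPM against 875, 827, 663 and 811 CPM, and rose by 1.76 (log2, SE 0.2, edgeR adjusted p = 0.00368). ZBTB32, a zinc finger repressor, lay at 0.0395, 0.0586 and 0.0566 CPM against 3.68, 1.25, 2.49 and 3.96 CPM. Its naive libraries were near 0, so its fitted log2 fold change of 5.61 (edgeR adjusted p = 0.00485) rests on few naive counts.

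TBX21, the T-box factor that drives cytotoxic and Th1 genes, lay at 5.32, 2.08 and 1.85 CPM in naive and 29.5, 15.5, 11.6 and 17 CPM in memory libraries, and rose by 2.68 (log2, SE 0.39, edgeR adjusted p = 0.00747). EOMES, its relative of long-lived memory, lay at 16.4, 31.5 and 25.5 CPM against 64.9, 153, 191 and 134 CPM, and rose by 2.46 (log2, SE 0.38, edgeR adjusted p = 0.00913). Neither gene's groups overlapped. Both calls were sensitive to single libraries: without the RhM22 after naive library the adjusted p was 0.0543 for TBX21 and 0.0609 for EOMES, and EOMES had 0.0718 without the RhM22 before memory library. PRDM1, which encodes the effector repressor Blimp-1, rose by 1.92, the RUNX factors RUNX3 and RUNX2 by 1.36 and 1.75, and the atypical homeodomain gene HOPX by 3.08 on the log2 scale. PRDM1, RUNX3 and HOPX were not called without the RhM22 after naive library (adjusted p of 0.0652, 0.159 and 0.0794), and RUNX2 was not called without the RhM22 before memory library (0.0677). ID2 (0.07, adjusted p = 0.866) and TOX (0.3, adjusted p = 0.535), regulators of effector and of chronically stimulated cells, showed no call. Of this list 4 members were called without the RhM22 after naive library and 6 without the RhM22 before memory library.

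Cytotoxic granule genes were higher in memory cells, although naive libraries also held their transcripts. Of 21 tested 11 rose and none fell, with a median log2 fold change of 1.66, and all 21 were above 0. PRF1 (ENSMMUG00000064708), the pore-forming protein perforin, lay at 102, 194 and 137 CPM in naive and 277, 1245, 456 and 1151 CPM in memory libraries. The groups did not overlap, both memory libraries of RhM22 were more than 2 times those of RhDBCb, and the rise was 2.48 (log2, SE 0.33, edgeR adjusted p = 0.00571). GZMA, granzyme A, lay at 5.23, 1.83 and 1.68 CPM against 26.4, 10.9, 20 and 19.4 CPM and rose by 2.7 (log2, SE 0.37, edgeR adjusted p = 0.00602). GZMK, the granzyme of less differentiated memory cells, lay at 139, 29.3 and 21.5 CPM against 322, 297, 489 and 325 CPM and rose by 2.79 (log2, SE 0.49, edgeR adjusted p = 0.0144). Its naive level in RhDBCb before was more than 4 times those of RhM22, and the call was lost without the RhM22 after naive library (adjusted p = 0.0877) or the RhM22 before memory library (0.0758).

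Granzyme B and CCL5 were not called over both times. GZMB lay at 170, 133 and 67.5 CPM in naive and 178, 608, 312 and 965 CPM in memory libraries, which did not overlap, with RhDBCb before nearly equal in both subsets (log2 fold change 1.95, SE 0.63, edgeR adjusted p = 0.102). The chemokine CCL5 lay at 251, 51.2 and 30.5 CPM against 139, 203, 165 and 317 CPM, so that the groups overlapped through the RhDBCb before naive library (log2 fold change 1.29, SE 0.77, edgeR adjusted p = 0.339). Without that library the adjusted p was 0.0229 for GZMB and 0.0154 for CCL5. Per length, the abundant members of the list in memory cells were PRF1 at a mean of 155 FPKM (28.5 in naive), NKG7 at 120.1 (23.3) and the granule proteoglycan SRGN at 109 (71.2), while GZMB averaged 15.7 and GZMA 2.83 FPKM. The count of 11 fell to 2 without the RhM22 after naive library and to 4 without the RhM22 before memory library, and rose to 17 without both libraries of RhDBCb before treatment.

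Cytokine genes rose in 3 of 15 cases and fell in 1, beside 5.4% and 2.95% of all genes tested. Their median log2 fold change was 1.39. CSF1, macrophage colony-stimulating factor, lay at 46.2, 35.4 and 15.7 CPM in naive and 167, 317, 250 and 391 CPM in memory libraries. It rose by 3.21 (log2, SE 0.49, edgeR adjusted p = 0.00871), with all memory libraries above all naive ones and the call held whichever library was left out. TNF lay at 1.12, 1.51 and 0.566 CPM against 2.96, 14.4, 8.4 and 12.1 CPM and rose by 3.23 (log2, SE 0.61, edgeR adjusted p = 0.0192), a call lost without the RhM22 before memory (0.129) or the RhM22 after naive library. The regulatory cytokine IL10 was at or near 0 in naive libraries (0, 0.0147 and 0 CPM) and at 0.473, 1.53, 1.73 and 1.26 CPM in memory libraries. LTA, lymphotoxin alpha, fell by 1.28 (log2, SE 0.29, edgeR adjusted p = 0.0361), which 6 of the 7 fits without 1 library did not call. The rises numbered 7 without the RhDBCb before naive library, 10 without both libraries of that draw, and 1 without the RhM22 after naive or the RhM22 before memory library.

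Receptors for migration into tissue had a median log2 fold change of 2.98 over 18 tested genes, of which 10 rose and none fell. CCR4, a receptor for skin-homing chemokines, lay at 1.66, 1.2 and 1.42 CPM in naive and 17.9, 76.4, 38 and 44.7 CPM in memory libraries and rose by 4.95 (log2, SE 0.51, edgeR adjusted p = 0.0034). CCR6 (ENSMMUG00000005676), the CCL20 receptor of mucosal T cells, lay at 25.8, 7.34 and 3.03 CPM against 174, 181, 315 and 147 CPM and rose by 4.42 (log2, SE 0.54, edgeR adjusted p = 0.00433). In both, the lowest memory library exceeded the highest naive one more than 5 times. CXCR3, a receptor for interferon-induced chemokines, lay at 8.52, 9.98 and 5.78 CPM against 54.7, 54, 45.8 and 72.5 CPM and rose by 2.9 (log2, SE 0.3, edgeR adjusted p = 0.0034). CXCR5, which directs cells to B cell follicles, was as even, at 8.26, 9.29 and 8.3 CPM against 49, 47.2, 64.9 and 52.1 CPM, and rose by 2.57 (log2, SE 0.23, edgeR adjusted p = 0.0034).

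CCR2, a receptor for monocyte-attracting chemokines, rose by 3.99 on the log2 scale. It varied widely within memory cells, with 209 CPM in RhDBCb before and 28.4 to 55.4 CPM in the other 3. GPR183, an oxysterol receptor that positions lymphocytes, was the most abundant member by count, with 3025, 2129.6 and 1542 CPM in naive and 5641, 6111, 6363 and 5294 CPM in memory libraries, and rose by 1.43 (log2, SE 0.22, edgeR adjusted p = 0.00856, but 0.0877 without the RhM22 after naive library). CX3CR1, the fractalkine receptor of terminal effector cells, stayed at 3.27 CPM or less in every library (log2 fold change 0.68, adjusted p = 0.669). The list kept 6 calls without the RhM22 after naive library.

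Adhesion genes moved less: 8 of 20 tested rose, none fell, and the median was 0.8 on the log2 scale. ITGB1, the beta-1 integrin chain, lay at 410, 236 and 224 CPM in naive and 3995, 1230.3, 1111 and 1111 CPM in memory libraries and rose by 2.52 (log2, SE 0.36, edgeR adjusted p = 0.00741). Its RhDBCb before memory library was more than 3 times the other 3, and the call held without it. ITGAL, the alpha chain of LFA-1, rose by 1.31, the adhesion partner CD2 by 1.27 and CD58, the ligand of CD2, by 1.08 on the log2 scale, and all 3 calls were lost without the RhM22 after naive library (adjusted p of 0.0674, 0.0835 and 0.169). CD44, the hyaluronan receptor often used to mark memory cells, had a log2 fold change of 0.7 (adjusted p = 0.146). Of these 8 calls 1 was left without the RhM22 after naive library, 2 without the RhM22 before memory library, and 4 without either RhDBCb before or RhM22 before naive library. There were 14 without both libraries of RhDBCb before treatment.

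Among cytokine receptor genes 10 of 22 tested rose and 2 fell (median 0.91). IL18R1 (ENSMMUG00000009244), a chain of the interleukin-18 receptor, was even across animals and times, at 2.44, 2.3 and 2.01 CPM in naive and 23.5, 22.5, 19.8 and 19.4 CPM in memory libraries, and rose by 3.27 (log2, SE 0.24, edgeR adjusted p = 0.00283). Its partner chain IL18RAP lay at 7.72, 5.55 and 3.23 CPM against 31.2, 96.9, 46.3 and 72.2 CPM and rose by 3.6 (log2, SE 0.48, edgeR adjusted p = 0.00575). TGFBR3, a co-receptor for transforming growth factor beta, lay at 107, 64.3 and 49.4 CPM against 535, 504, 469.7 and 507 CPM and rose by 2.84 (log2, SE 0.25, edgeR adjusted p = 0.0034). The groups were apart for all 3 genes. IL12RB2, for interleukin-12, rose by 2.93 and IL2RA, the high-affinity interleukin-2 receptor chain, by 2.82 on the log2 scale, whereas IL2RB, shared by the interleukin-2 and interleukin-15 receptors, had 0.91 (adjusted p = 0.156).

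IL6ST, the signal chain gp130 of the interleukin-6 family, went the other way. It lay at 115, 215 and 265 CPM in naive and 20.5, 57.1, 26.2 and 34.5 CPM in memory libraries, without overlap, and fell by 2.35 (log2, SE 0.24, edgeR adjusted p = 0.0034). CD7, an early T cell surface protein that stood on the same list, fell by 1.43 (log2, SE 0.25, edgeR adjusted p = 0.015), a call lost without any of 3 libraries (at most 0.0872, without the RhM22 before memory library). The 10 rises became 6 without the RhM22 after naive, the RhM22 before memory or the RhM22 after memory library, and the 2 falls became 5 without both libraries of RhDBCb before treatment. A single fall was called without the RhM22 after naive, the RhM22 before memory or the RhDBCb before naive library.

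Inhibitory receptor genes rose in 6 of 15 cases and fell in none, with a fitted median of 2.01. The list's medians within the draws were smaller, at 1.09 in RhDBCb before, 1.44 in RhM22 before and 1.29 in RhM22 after. Its summed levels overlapped, at 617 to 877 CPM in naive and 846 to 1059 CPM in memory libraries. Every memory library was above every naive one in 8 members and below in 1, beside 12.6% and 10.5% of all genes tested. CD101, a surface inhibitor of T cell activation, lay at 0.0132, 0.909 and 0.566 CPM in naive and 4.77, 22.7, 10.8 and 26.6 CPM in memory libraries and rose by 5.63 (log2, SE 0.69, edgeR adjusted p = 0.00447). TIGIT, a receptor for nectins, lay at 8.66, 1.69 and 0.609 CPM against 51.7, 19.5, 29 and 20.5 CPM and rose by 3.55 (log2, SE 0.5, edgeR adjusted p = 0.0069). LAG3, which binds MHC class II, lay at 2.4, 1.42 and 1.85 CPM against 14.4, 12.6, 8.42 and 14.9 CPM and rose by 2.75 (log2, SE 0.36, edgeR adjusted p = 0.00551). All 3 calls held whichever library was left out. PDCD1, the gene of PD-1, lay at 20.8, 18.4 and 14.9 CPM against 229, 73.1, 59.2 and 85.4 CPM and rose by 2.55 (log2, SE 0.41, edgeR adjusted p = 0.0111), but had an adjusted p of 0.0606 without the RhDBCb before naive library. CTLA4, another brake of T cell activation, showed a log2 fold change of 0.18 (adjusted p = 0.744). Without both libraries of RhDBCb before treatment 10 members rose.

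Of 16 co-stimulatory and TNF receptor family genes 9 rose and none fell (median 1.24). TNFSF14, the ligand LIGHT, lay at 3.49, 3.37 and 2.85 CPM in naive and 24.5, 39.2, 26.7 and 28 CPM in memory libraries and rose by 3.26 (log2, SE 0.26, edgeR adjusted p = 0.00294). The naive libraries were nearly level and none came near the memory values. ICOS, the inducible co-stimulator, lay at 214, 471 and 414 CPM against 806, 1033, 672 and 713 CPM and rose by 1.32 (log2, SE 0.26, edgeR adjusted p = 0.0204, but 0.098 without the RhM22 before memory library). CD40LG and CD70, ligands that act on antigen-presenting cells and on CD27, rose by 3.22 and 3.19 on the log2 scale from naive levels of at most 2.08 and 1.25 CPM, and neither was called without the RhM22 after naive library (adjusted p of 0.0512 and 0.153). The 9 calls became 1 without the RhM22 after naive library, 3 without the RhM22 before memory library and 5 without either library of RhDBCb before treatment.

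Genes of unconventional T cells rose in 11 of 13 cases and 1 fell, with a median of 2.89. SLC4A10, a bicarbonate transporter that marks mucosal-associated invariant T cells, lay at 0.29, 1.06 and 0.609 CPM against 6.38, 9.56, 6.45 and 7.79 CPM and rose by 3.82 (log2, SE 0.43, edgeR adjusted p = 0.00368). IL23R, the interleukin-23 receptor, lay at 7.07, 3.08 and 1.53 CPM against 26.6, 35.6, 55.1 and 35.4 CPM and rose by 3.41 (log2, SE 0.49, edgeR adjusted p = 0.00747). No memory library of these genes overlapped a naive one, and both calls held whichever library was left out. KLRB1 (CD161) rose by 2.89 and the gamma constant region TRGC2 by 2.87 on the log2 scale, each with the lowest memory value in RhDBCb before and each lost without the RhM22 after naive (0.129 for KLRB1) or the RhM22 before memory library (0.0749 for TRGC2). Some members are shared with the lists of homing, cytokine and natural killer type receptors.

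TMIGD2, a co-stimulatory receptor placed on the unconventional T cell list, fell. It lay at 53.9, 45 and 39.2 CPM in naive and 2.81, 5.41, 6.31 and 8.25 CPM in memory libraries, without overlap, and fell by 3.14 (log2, SE 0.37, edgeR adjusted p = 0.00409). The rises of this list numbered 5 without the RhM22 after naive and 6 without the RhM22 before memory library. Summed over its members, the list held 199 to 289 CPM in naive and 643 to 899 CPM in memory libraries.

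Natural killer type receptors rose in 4 of 14 cases (median 0.82), and the list was uneven between draws. KLRG1, a receptor of differentiated T cells, rose by 2.71, NCR3 by 2.56 and KLRF1 by 2.72 on the log2 scale, with an adjusted p of 0.0678, 0.101 and 0.0902 without the RhM22 after naive library. In RhDBCb before, the list's median difference within the draw was 0.12, against 1.35 and 1.51 in RhM22 before and after. KIR2DL4, a killer immunoglobulin-like receptor, lay at 3.82, 3.5 and 2.32 CPM in naive cells and at 0.824, 11.8, 0.837 and 13.9 CPM in memory cells, with the high values in RhM22 and the low ones in RhDBCb (adjusted p = 0.803). Receptors of this family share sequence, so its reads are uncertain. Of the 4 calls 1 was left without the RhM22 before memory library and 0 without the RhM22 after naive library, while 12 were made without both libraries of RhDBCb before treatment.

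Among markers of other lymphocytes, most of the CD4 lineage list rose with memory, at low levels. The CD4 lineage list summed to 5 to 6.57 CPM in naive and 46.3 to 92.3 CPM in memory libraries, and 4 of its 5 genes rose, while CD4 itself did not exceed 1.71 CPM. CCR4, given above among the homing receptors, is also on this list and made up 17.9 to 76.4 CPM of the memory sums. ZBTB7B, the factor ThPOK of helper T cells, lay at 0.777, 0.645 and 0.892 CPM in naive and 6.35, 6.3, 5.14 and 5.93 CPM in memory libraries and rose by 2.95 (log2, SE 0.36, edgeR adjusted p = 0.00439). FOXP3, the factor of regulatory T cells, lay at 0.184, 1.92 and 2.6 CPM against 1, 5.92, 1.5 and 8.21 CPM, which overlapped, and rose by 1.91 in the fit with animal as a block (SE 0.38, edgeR adjusted p = 0.0235), a call lost in 5 of the 7 fits without 1 library. Natural killer markers summed to 16.5 to 32.6 CPM in naive and 41.8 to 108 CPM in memory libraries, with 1 of 8 called and CLIC3 at 0 in all 7. The count was 0 without the RhM22 after naive or the RhM22 before memory library, 2 without the RhDBCb before naive library and 7 without both libraries of RhDBCb before treatment. B cell markers summed to 73.1 to 115 CPM in naive and 34.6 to 53.4 CPM in memory libraries, but 4 of 8 were above 0 and the median was 0.09. The 1 called was CD79A, a chain of the B cell receptor complex, which fell by 1.56 on the log2 scale (adjusted p 0.0609 without the RhM22 after naive library). Without it 2 genes of the CD4 lineage list were called. The part of such cells in the results on granule genes, receptors and unconventional T cell genes was not tested.

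**Figure D2:**
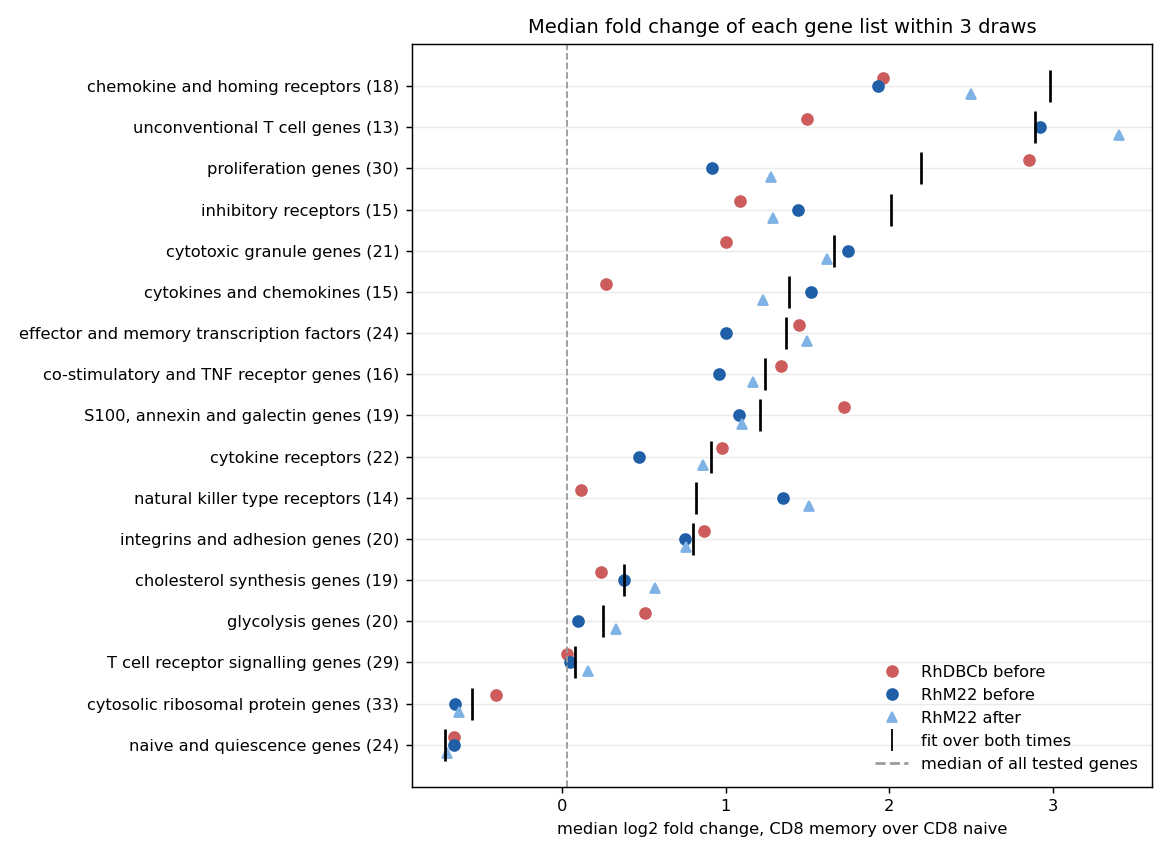
Median log2 fold change of memory over naive (x axis) of 17 gene lists (y axis) within each of the 3 draws that held both subsets (points), with the median of the fit over both times and the median over all 12731 genes tested at 0.03. The homing receptor list lay at 1.96, 1.93 and 2.5, the naive list at -0.66, -0.66 and -0.7, and the proliferation list at 2.85 in RhDBCb before against 0.92 and 1.28 in RhM22.

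Genes of S100 proteins, annexins and galectins, many of which bind calcium or membranes in motile cells, rose in 10 of 19 cases (median 1.21), and all 19 were above 0. S100A4 (ENSMMUG00000010979) lay at 104, 40.3 and 32.3 CPM in naive and 2287, 326, 401 and 461 CPM in memory libraries and rose by 3.65 (log2, SE 0.53, edgeR adjusted p = 0.00747). ANXA2, a membrane-binding annexin, lay at 144, 71.7 and 54.6 CPM against 1309.7, 426, 427 and 403 CPM and rose by 2.77 (log2, SE 0.31, edgeR adjusted p = 0.00368). LGALS3, galectin-3, lay at 44.8, 17.3 and 11.4 CPM against 329, 109, 107 and 99.5 CPM and rose by 2.76 (log2, SE 0.31, edgeR adjusted p = 0.00368). In each gene the RhDBCb before draw was the highest of its subset. The within-draw differences were 4.45, 3 and 3.81 for S100A4 and 3.18, 2.56 and 2.87 for ANXA2. S100A10, AHNAK and CRIP1 rose by 1.99, 2.05 and 2.11 on the log2 scale. The 10 calls became 6 without the RhM22 after naive library, and the calls of S100A4, ANXA2 and LGALS3 held without the RhDBCb before memory library.

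Proliferation genes were higher in memory cells, by far the most in 1 library. In 20 of 30 members every memory library was above every naive one, beside 12.6% of all genes tested. Of 30 tested 12 rose, none fell, the median was 2.19 and all 30 were above 0. RRM2, a subunit of ribonucleotide reductase, lay at 3.73, 0.528 and 0.127 CPM in naive and 112, 9.37, 18.4 and 15.4 CPM in memory libraries and rose by 5.06 (log2, SE 0.71, edgeR adjusted p = 0.0069). TOP2A, the topoisomerase of dividing cells, lay at 1.87, 1.83 and 1.77 CPM against 41.9, 13.2, 13.5 and 13.9 CPM and rose by 3.34 (log2, SE 0.45, edgeR adjusted p = 0.00593). MKI67, the Ki-67 antigen, lay at 6.15, 0.425 and 0.495 CPM against 116, 5.92, 11.1 and 10.1 CPM, so the RhM22 before memory library lay below the RhDBCb before naive one, and it rose by 3.87 (log2, SE 0.75, edgeR adjusted p = 0.0212), a call lost in 4 of 7 fits without 1 library. Summed over the list, the RhDBCb before memory library held 2956 CPM, the other 3 memory libraries 1101 to 1252 CPM and the naive libraries 699 to 838 CPM. Without that library 5 of the 30 rose and the median was 1.53, and the calls of RRM2 and TOP2A held. The count was 4 without the RhDBCb before naive or the RhM22 after memory library and 3 without the RhM22 after naive library, but 18 with a median of 1.37 when both libraries of RhDBCb before were left out. PCNA, a clamp of the replication machinery, had a log2 fold change of 0.56 (adjusted p = 0.145).

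**Figure D3:**
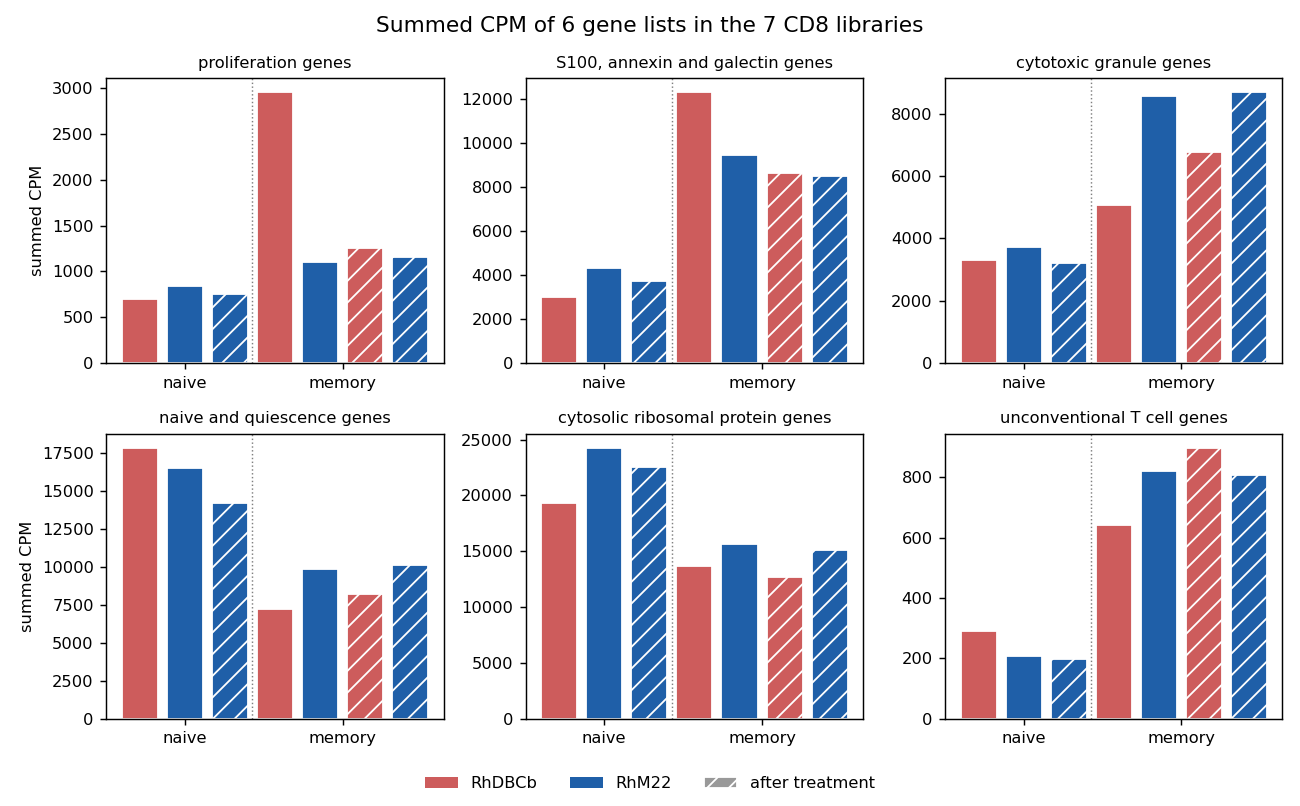
Summed CPM (y axes, from 0) of 6 gene lists in each of the 7 CD8 libraries (bars). The naive list lay at 14247 to 17889 CPM in naive and 7203 to 10166 CPM in memory libraries, and the proliferation list stood at 2956 CPM in the RhDBCb before memory library alone.

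Other gene groups differed little. T cell receptor signalling genes had a median of 0.08, with 1 of 29 higher and 2 lower. THEMIS, a regulator of T cell receptor signals in development, lay at 209, 77.4 and 143 CPM in naive and 35, 26.1, 30.7 and 29.7 CPM in memory libraries and fell by 2.28 (log2, SE 0.27, edgeR adjusted p = 0.00409). The adaptor GRAP2 fell by 1.19 and the adaptor SLA2 rose by 1.5 on the log2 scale, with an adjusted p of 0.115 and 0.0652 without the RhM22 after naive library. Without the RhM22 after naive library none rose and 1 fell, and 2, 3 and 4 rose without the RhDBCb before naive, the RhDBCb before memory and the RhDBCb after memory library.

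In glycolysis 2 of 20 genes rose (median 0.25), beside 5.4% of all genes tested. GAPDH, the glycolytic dehydrogenase, lay at 1117, 1187 and 901 CPM against 2346, 2017, 2448 and 1816 CPM and rose by 0.99 (log2, SE 0.19, edgeR adjusted p = 0.0198, but 0.182 without the RhM22 after naive library). Cholesterol synthesis, of interest because the study's agent takes up cholesterol, showed 2 of 19 genes higher (median 0.38). SQLE, squalene epoxidase, lay at 14.7, 7.52 and 8.72 CPM against 52.8, 38.3, 34.6 and 33.3 CPM and rose by 1.94 (log2, SE 0.25, edgeR adjusted p = 0.00551), with no overlap and a call that held whichever library was left out. Glycolysis calls numbered 0 without the RhM22 after naive or the RhM22 before memory library, 1 without the RhDBCb before or the RhM22 before naive library and 5 without the RhDBCb after memory library. Cholesterol synthesis had 1 call without any single library except the RhDBCb after memory library.

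Cytosolic ribosomal protein genes were lower together by a small amount: all 33 tested had a log2 fold change below 0, from -0.82 to -0.29, with a median of -0.55. In 24 of the 33 every memory library was below every naive one, beside 10.5% of all genes tested. Of the 33, 3 passed the test, RPL32 and RPL34 among them. Those 3 calls were lost without any single library except the RhDBCb after memory library, without which 11 fell, and 27 fell without both libraries of RhDBCb before treatment. None of 13 mitochondrially encoded genes was called, but none had a log2 fold change above 0, and the median was -0.63. In 12 of the 13 memory was below naive in all 3 draws. In 4 every memory library was below every naive one, beside 10.5% of all genes tested. The list's medians within the draws were -0.43 in RhDBCb before, -0.42 in RhM22 before and -1.18 in RhM22 after. DESeq2 called 5 of the 13 lower. Immediate early genes, which are switched on within minutes of stimulation or handling, had a median of 0.06. Of 25 tested 3 were higher, beside 5.4% of all genes tested. These 3 calls became 0 or 1 without any single library except the RhDBCb after memory library, without which there were 5. Their sum was highest in the RhDBCb before naive library at 47353 CPM, against 16121 to 26783 CPM in the other 6, and the part of this difference in the results of that draw was not tested.

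Among the 12 named genes with the largest rises, several belonged to no list. ADAM19, a membrane metalloprotease, lay at 0.263, 0.85 and 0.311 CPM in naive and 24.5, 16.2, 14.1 and 9.38 CPM in memory libraries and rose by 5.22 (log2, SE 0.53, edgeR adjusted p = 0.0034). CGA, the common alpha chain of pituitary and placental glycoprotein hormones, lay at 6.91, 0.601 and 0.864 CPM against 101, 37.1, 37.8 and 43.5 CPM and rose by 4.73 (log2, SE 0.65, edgeR adjusted p = 0.00627). OASL, an interferon-induced gene, lay at 1.24, 3.52 and 0.807 CPM against 33.8, 37, 24.9 and 28.1 CPM and rose by 4.46 (log2, SE 0.45, edgeR adjusted p = 0.0034). The groups were far apart for each of them. KCNK13, a potassium channel, lay at 4.79, 1.66 and 1.1 CPM against 22.4, 49.9, 46.5 and 60 CPM and rose by 4.27 (log2, SE 0.66, edgeR adjusted p = 0.00942). All 4 calls held whichever library was left out.

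All genes called before treatment had the same direction after it, in contrasts that come from the same fit and share its animal term. The share of all genes tested with the same direction is not given for that fit. In the contrast before treatment, taken from a fit of all 15 libraries, 365 genes rose (2.87%) and 156 fell (1.23%) at an edgeR adjusted p under 0.05, together 4.09% of the genes tested, and after treatment, where a single naive library stood against 2 memory libraries, 92 rose (0.723%) and 47 fell (0.369%), together 1.09%. Both contrasts share the spread of the CD4 libraries: on the 7 CD8 libraries alone the counts were 202 before and 0 after, and with no animal block 15 and 0. For the 521 genes called before, the median log2 fold change went from 2.17 to 2.01 among those higher and from -2.15 to -1.77 among those lower, and 124 were also called after, which is 23.8% of the calls before and 89.2% of the 139 calls after. The difference between the times was itself tested, and no gene was called (0% of 12731, edgeR quasi-likelihood test, smallest adjusted p 1, with 114 genes at an unadjusted p under 0.05). DESeq2 called 0 as well, with 171 at an unadjusted p under 0.05. The median SE of that difference was 0.61 on the log2 scale, against 0.38 before and 0.48 after, so the count of 0 does not show that the differences at the 2 times were equal. Time was confounded with animal in part, because the after contrast had no naive library of RhDBCb, and 77 genes were called before without the RhDBCb before memory library, 135 without the RhDBCb before naive and 272 without the RhM22 before naive library. After treatment the count was 40 without the RhM22 after memory and 76 without the RhDBCb after memory library.

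**Figure D4:**
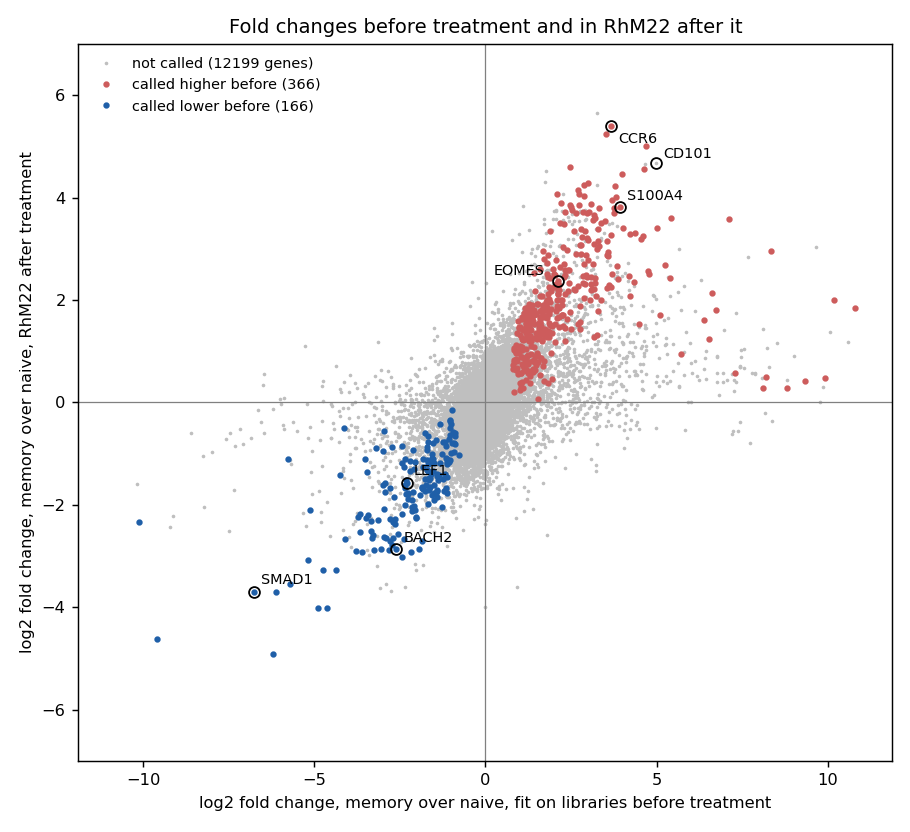
Log2 fold change of memory over naive for 12731 genes in the fit on the 8 libraries drawn before treatment (x axis) against the difference within the RhM22 draw after treatment (y axis), with 366 genes called higher and 166 called lower in the first fit in colour and 7 genes circled. All 532 coloured genes had the same direction on both axes.

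A check that shared no library between the times gave the same direction. In a fit of the 8 libraries drawn before treatment, 366 genes rose (2.87%) and 166 fell (1.3%), together 4.18% of the genes tested. Read in the RhM22 draw after treatment, which that fit did not use, all 366 were higher and all 166 lower in memory, beside 49.6% and 50.2% of all genes tested. Among the risers 295 differed by more than 2-fold (80.6%, against 9.14% of all genes) and among the fallers 133 (80.1%, against 7.96%). Their medians were 1.87 before and 1.73 after for the risers, and -2.03 and -1.62 for the fallers. Animal RhM22 gave libraries to both sides, so part of the likeness is that of 1 animal. Across the 12731 genes the differences within draws correlated at a Pearson r of 0.79 between the RhM22 draws before and after, 0.6 between RhDBCb before and RhM22 before and 0.61 between RhDBCb before and RhM22 after (Spearman 0.66, 0.52 and 0.55), a description across genes, which are not independent replicates.

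**Figure D5:**
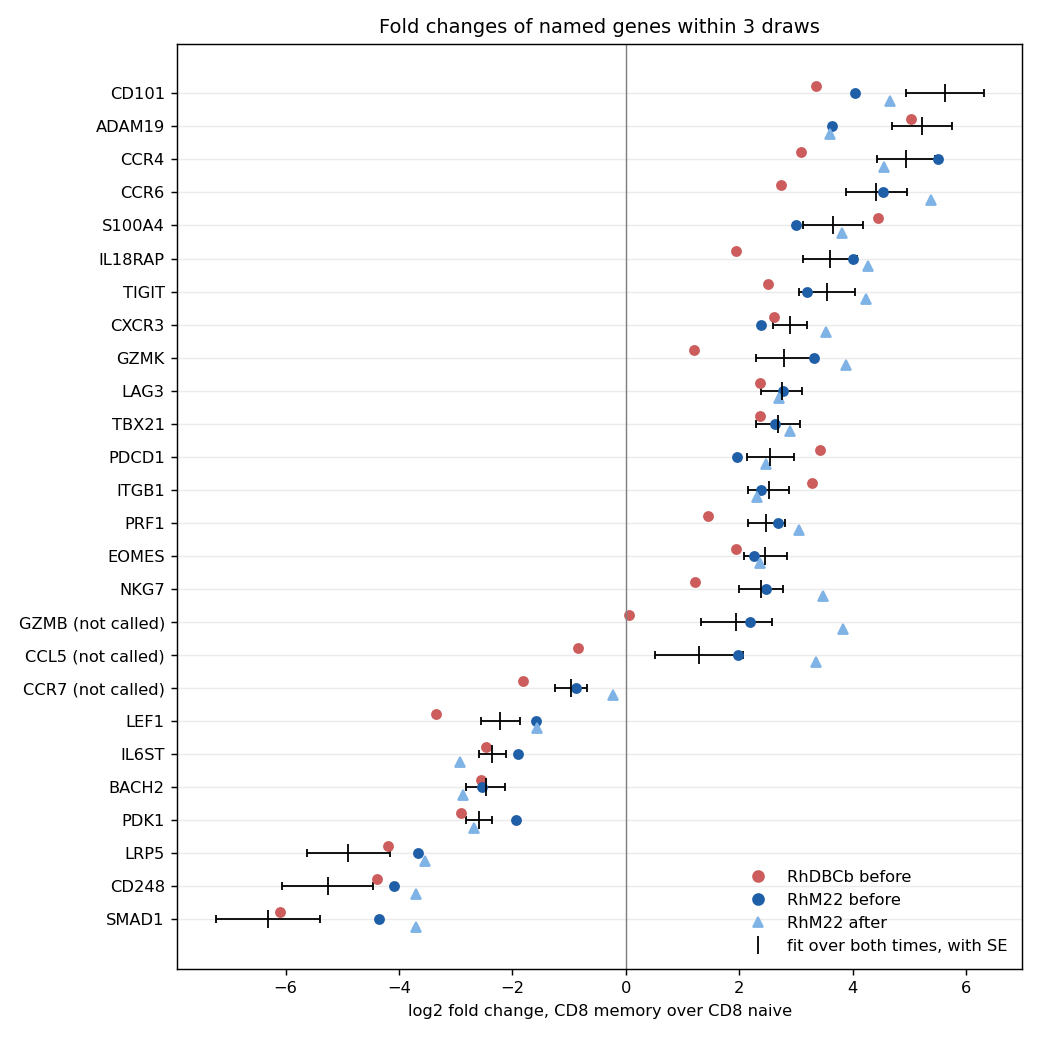
Log2 difference of memory over naive, computed on CPM + 0.5, within the 3 draws (points) for 26 genes (y axis), with the fold change of the fit over both times and its SE (bars). LAG3 lay at 2.37, 2.77 and 2.71, while PRF1 lay at 1.45 in RhDBCb before and at 2.68 and 3.06 in RhM22.

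Gene by gene, the differences within the 3 draws (log2 of the CPM ratio after adding 0.5) show where the programme was even and where it was not. In the order RhDBCb before, RhM22 before and RhM22 after, IL18R1 lay at 3.03, 3.04 and 2.99, CXCR5 at 2.5, 2.28 and 2.58, S100A10 at 2.07, 1.92 and 2.25, and BACH2 at -2.55, -2.53 and -2.87. Other genes were nearer between the 2 draws of RhM22 than between the animals. GZMK lay at 1.21, 3.32 and 3.88, KLRB1 at 0.96, 3.49 and 4.07 and GNLY, the granule protein granulysin, at 1.03, 3.08 and 4.51. LEF1 lay at -3.34, -1.58 and -1.57. Within the lists the granule genes had medians of 1, 1.75 and 1.62 and the unconventional T cell genes 1.5, 2.92 and 3.4. Whether the animals differed was not tested, since 1 draw of RhDBCb held both subsets.

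Among the 5 genes with the smallest p for a difference between the times were SYNE2, CSF1, GZMB and CD38, and none of the 5 passed the correction (adjusted p 1 each). SYNE2, a nuclear envelope protein, had a log2 fold change of 2.08 before and 4.59 after (difference 2.52, SE 0.64). It lay at 9.69, 7.2 and 1.49 CPM in naive and 45.9, 27.6, 58.5 and 32.7 CPM in memory libraries, and the naive value after treatment was the lowest. CSF1 had 2.46 before and 4.54 after (difference 2.08, SE 0.57), and GZMB 1.07 and 3.49 (difference 2.43, SE 0.71). In both, too, the RhM22 after naive library was the lowest naive one. CD38, an ectoenzyme that breaks down NAD, lay at 68.5, 114 and 178 CPM in naive and 47.4, 81.5, 42.2 and 52.4 CPM in memory libraries, with -0.52 before and -1.61 after (difference -1.09, SE 0.33). Each after value rests on the single RhM22 naive library.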

How the data were processed

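RNA of blood T cell subsets was measured in 15 libraries, of which 7 were CD8. Per the labels' protocols, polyA RNA came from RNeasy Micro extracts and the SMART-Seq v4 kit was used for the libraries. That kit leaves strand unmarked, so reads of a gene and of an antisense partner cannot be told apart. The authors deposited expected counts per gene, unscaled, and FPKM values per gene, which are scaled for gene length. Per the submitters' processing notes, cutadapt 1.18, STAR 2.7.6a and RSEM 1.3.3 were used with the builds Mmul_10 and rheMac10, and the FPKM scale factor is not given in the sources used here. Rounding made the expected counts whole (largest shift of a library's total, 26.1). The FPKM table held 28331 of 34884 genes, and the 6553 others had 0 counts in every library. Between 3.4% and 8.29% of a library's counts fell in unnamed genes. FPKM was used only to set levels of different genes side by side.

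Genes were filtered with edgeR's filterByExpr over the 7 CD8 libraries by subset (minimum count 10), which left 12731, scaled with TMM and tested with the quasi-likelihood F test, with Benjamini-Hochberg adjustment over all of them and a call at an adjusted p under 0.05. The comparison over both times was fitted on the 7 libraries with animal and time as terms, which left 3 residual degrees of freedom. The contrasts before, after and after minus before came from all 15 libraries in 8 subset-by-time groups plus animal. The SE is the log2 fold change divided by the square root of F. Differences within a draw are log2 ratios of CPM + 0.5. The software was DESeq2 1.42.0, edgeR 4.0.16 and limma 3.58.1 in R 4.3.3. The scripts were tested on simulated data in which 200 of 12731 genes were changed. The fit over both times recovered 21% of log2 changes of size 1 and 79% of size 2, with 12 false calls among 112. The after minus before test recovered 0% and 2%, so it would miss nearly all changes of these sizes.

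Samples are paired because the labels give the animal. Across genes, deviations from the group means correlated at 0.64 between CD8 naive and CD8 memory before treatment, which came from the same draws. For CD8 memory after treatment, from other draws of the same animals, the values were 0.325 with CD8 naive before and 0.321 with CD8 memory before. The likeness was thus larger within a draw than between draws of an animal, and a block by draw is among the alternatives.

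The members, the 27 gene lists and the tests were chosen with earlier results of these data known. The rule named up to 12 called genes per direction by size of fold change, given a symbol, a mean level of 5 CPM or more and 1 direction in all 3 draws. It added up to 3 called members per direction of each list, a panel of 51 genes, and the 5 genes of smallest p for the time difference. Other list members, and the genes given for marker checks, were chosen after their values were seen. Of 492 list members 448 matched a symbol and 415 were tested. Alternatives were RLE scaling, DESeq2, limma voom, limma on log2(FPKM + 1) and log2(FPKM + 0.1), no filter, other blocks, other sets of libraries and each library left out. Fits without the RhDBCb before draw and on the 8 libraries before treatment were added after seeing the data. PCR copies count as reads here, so depth understates a count's error. A few genes are not reported here, and all fits and counts keep them. No sequences or positions were used.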

Additional observations from a re-analysis of the deposited data

Results flagged for a closer look

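In 7 of 115 named genes 1 of the 4 CD8 memory libraries stood farther from the other 3 than Dixon's 95% limit for 4 values allows. The gaps were taken on the log2 scale, while the levels beside them are CPM, so the count of 7 holds for the log2 scale only. Chance gives about 5% of such cases, and 7 of 115 is near that share. The library was that of RhDBCb before treatment each time. It was the high one for ANXA2 (gap 0.95 of the range, 1310 CPM), LGALS3 (0.924, 329 CPM), ITGB1 (0.921, 3995 CPM), S100A10 (0.861, 921 CPM), the nuclear receptor RORA (0.842, 311 CPM) and CGA (0.841, 101 CPM). It was the low one for S1PR5, a sphingosine-phosphate receptor of effector cells (gap 0.889 of the range, 7.17 CPM). The same library held the highest sum of proliferation genes, and the part of this in the 7 values was not tested.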

How the results depend on the processing

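Over the 2020 values of the named genes under the alternatives, 1693 kept their side of the threshold, 290 fell short of it and 37 passed it. None of the 97 called named genes changed sign, but genes that were not called did, among them IL7R (-0.43 to 0.22), CD28 (-0.18 to 0.18), ID2 (-0.06 to 0.25) and CX3CR1 (-0.36 to 1.71 on the log2 scale). RLE scaling gave 1066 calls over both times, 523 before and 145 after, and no filter 1188, 575 and 193, all within 1.5 times of the 1063, 521 and 139 reported. DESeq2 called more, 2298, 1407 and 703. Without the animal block ("no replicate block") the counts were 442, 15 and 0, and with a replicate block by draw 1432, 825 and 230. All 15 libraries in the fit over both times gave 2131, and the 7 CD8 libraries alone gave 202 before and 0 after. On FPKM, limma called 339 with a pseudocount of 1 and 839 with 0.1. Limma voom called 1368. Leaving out each library in turn gave 226 to 1432 over both times, 77 to 558 before and 40 to 189 after, the last over 6 fits because no contrast remains without the RhM22 after naive library. Without both libraries of RhDBCb before treatment the counts were 2983, 16 and 201, and the fit on the 8 libraries before treatment gave 532. The 2983 calls rest on RhM22 alone. Where 1 library is left in a group, it is assumed to vary like the others. The after minus before difference gave 0 calls in every one of these fits that could be made. The cause of these differences in counts was not tested. Libraries held 55024208 counts or more, and the median SE of a time difference was 0.61 on the log2 scale.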
